A study of Mus musculus with 8 samples.

Results

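Circular RNAs (circRNAs) whose genomic span was under 2000 bases, here called short circRNAs, made up 493 of the 2163 circRNAs in the deposited table. They were chosen by position alone: the span is the end minus the start plus 1, and no measured value entered the choice. The RNA came from proximal tubules isolated from the renal cortex of male C57BL/6 mice given cisplatin, a platinum drug that injures this nephron segment. A dose of 30 mg/kg, injected into the peritoneum, is the treatment the labels give. Libraries were taken at 0, 24, 48 and 72 h, with 2 libraries (a and b) at each time and no dose listed for the 0 h group, which served as the control. The duplicates are called biological, but separate animals are not stated, so the p-values below reflect only how much these libraries vary. All groups share the strain, the sex and the tubule isolation.

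A circRNA forms when a downstream splice donor is joined backwards to an upstream splice acceptor, so that 1 exon or a few exons close into a ring. The back-splice junction that closes the ring is absent from the linear messenger RNA of the same gene, and reads across it are what a circRNA count holds. Rings have no free ends for exonucleases to attack, and they are known for being stable for longer than their linear counterparts. A short span leaves room for 1 exon or for a few exons with short introns between them, and some of the best-known circles, such as those of Slc8a1 and Hipk3, are made from 1 large exon. Exon positions were not used here, so a span is the distance on the genome (positions are in mm10), not the length of the ring.

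The letters beside the end of a circle are those at which the splicing machinery cuts and joins the RNA. RefSeq promoter windows (GRCm38.p6, the mm10 assembly; 250 bases before to 50 after a gene start) covered an end of 7 short circRNAs, each on the acceptor side. The 5 that lie in protein-coding genes are shown, because they let the dinucleotide that a back-splice acceptor needs be seen. Each runs 5′ to 3′ on the strand on which AG was found, which is that of the host row in the 4 that have one, with 20 bases before the circle and its first 10 bases, and the capitals mark the 2 bases just before the circle.
Rbm4, 1612 bases, chr19:4794000-4794029, minus strand: acctcttcctggcctctcAGgtaattggcg
Klf7, 628 bases, chr1:64079325-64079354, minus strand: tctccttccttcctccacAGacatgccttg
Chd9, 1614 bases, chr8:90932229-90932258, plus strand: ttttgttgttattttcctAGgattctgatg
Atp2b4, 661 bases, chr1:133753740-133753769, minus strand: tttttgcatctctattccAGaggcctagcc
Nav1, 801 bases, chr1:135585346-135585375, minus strand: cccccgccccgtgcctgcAGacgcgcggat

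All 7 of these ends were preceded directly by AG, the bases that end an intron, and the 5 shown have a stretch rich in pyrimidines (c and t) before it. Only this position next to the circle was read, on either strand, for AG (acceptor) or GT (donor). As background, AG stood at 7.69% of the dinucleotide positions in 32851 promoter windows of 300 bases, and 99.99% of the windows held it at least once. Among longer circRNAs the windows covered 29 ends, 22 with AG as an acceptor and 7 with GT as a donor. The circRNA caller is not given, and one that keeps only circles bounded by AG and GT would fix this outcome in advance. The letters are therefore shown as a description and are not a test of the circles. The circles ranged from well counted to barely seen: the Rbm4 circle had a mean count of 84.4 per library, those of Klf7, a zinc-finger transcription factor, and Chd9, a chromatin remodeller, 6 each, that of the plasma membrane calcium pump gene Atp2b4 2.5, and that of the neuron navigator gene Nav1 0.5.

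The 8 libraries held 13603 to 21024 back-splice counts, and the deposited table gave whole-number counts without normalisation. Normalised counts below are counts divided by each library's effective size relative to the geometric mean of the libraries. The labelled cell type was checked against its markers: all 12 proximal tubule genes listed were above 1 FPKM (fragments per kilobase of gene, scaled for depth) in the 0 h group, at a summed 6654 and 7277 FPKM. Their sum was 3666 and 3222 (24 h), 2081 and 2148 (48 h), and 810.2 and 820.0 (72 h). Endothelial markers (4 of 4 above 1 FPKM at 0 h) summed to 44.1 to 45.7 at 0 h and 94.7 to 99.0 at 72 h, neutrophil markers (0 of 3 above 1 FPKM at 0 h) to 0.888 to 1.03 and 60.1 to 62.7, and tubular injury markers (4 of 5 with a row) to 29.8 to 29.9 and 964.5 to 983.5. Markers of other cell types were present too. Thick ascending limb markers (3 of 4 with a row) summed to 240.2 and 245.7 FPKM at 0 h and 121.1 and 121.4 at 72 h. Distal tubule markers went from 294.5 and 272.4 to 49.99 and 52.7, and collecting duct markers from 105.2 and 94.9 to 167.55 and 178.2. Red cell markers (2 of 4 with a row) went from 373.2 and 380.9 to 4.81 and 4.26, and podocyte markers from 25.5 and 21.9 to 46.1 and 47.3. Fewer cells of a type and less RNA per cell cannot be told apart in such bulk samples, and the part of these shifts in any result below was not tested.

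Short circRNAs spanned 143 to 1994 bases, with a median of 930 and quartiles at 494 and 1486. Of the 493, 426 lay inside exactly 1 protein-coding gene, 4 inside 2, and 63 inside none, of which 28 lay in another RefSeq gene. The 426 came from 405 host genes, 21 of them with 2 short circRNAs and none with more. The hosts had a median length of 86037 bases, against 106555 for circRNAs of 2000 to under 10000 bases, 123880 for 10000 to under 30000 bases and 223399 for 30000 bases or more. A host has to hold both ends of its circle, so the least possible host length rises with span by definition. The middle of a short circRNA lay at a median of 0.49 of the way along its host, about the same as the 0.44 to 0.52 in the longer classes. In all, 86 of the short circRNAs, 17.4%, shared a start or an end with another circRNA, against 738 (44.2%) of the longer ones. In the 3 longer classes, in order of span, this was 29.9%, 48.9% and 67.3%.

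Most short circRNAs were rare. The median mean count per library was 2.25, against 2.5, 2.75 and 1.56 in the 3 longer classes in order of span, and 176 of the 493 had a mean under 1. A count was seen in all 8 libraries for 200 (40.6%), against 42.5%, 44.1% and 33.9% of the longer classes, in at least 4 for 343, and in only 1 for 25. Each row of the table summed to at least 2 counts over the libraries, so rarer circles are not listed. The counts were concentrated: the circle of Slc8a1 alone held 15.5% of all short counts and the 10 most counted held 33.5%. The Slc8a1 circle was also the most counted of all 2163 circRNAs, and 3 of the 20 most counted were short.

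**Figure D1:**
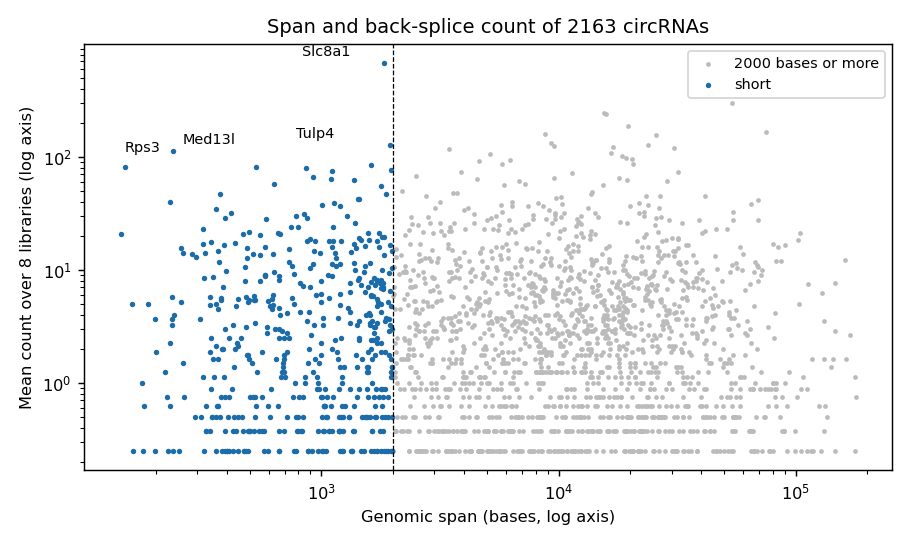
Mean count per library (vertical, log axis) against genomic span in bases (horizontal, log axis) for 2163 circRNAs, 1 point each; blue points are the 493 short circRNAs and the dashed line marks 2000 bases. The Slc8a1 circle is the highest point of all, and both sides of the line hold many circles with a mean under 1 count.

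The members at the edges of the span range had few to many counts. The shortest circle, 143 bases of Eif4a1, which encodes an RNA helicase of translation initiation, had 23, 18, 10, 19, 25, 18, 28 and 26 counts from 0 h a to 72 h b. The next, 148 bases of Rps3, encoding a ribosomal protein, was among the 8 most abundant. Both are named by the protein-coding gene that holds them. Exon positions were not used, so whether either comes from an exon or from another gene nested in its host was not tested. Just inside the limit lay circles of Gm34388 (1993 bases, 0 to 2 counts) and of the formin gene Fmn1 (1994 bases, 7 to 26 counts), and just outside it those of Zfp512 (2009 bases, 3 to 9 counts) and St8sia1 (2012 bases, 0 to 1 count).

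Short circRNAs took 24.3% to 26.5% of the counts in every library, with no change over time past the test. They held 24.7% and 24.3% of circRNA counts at 0 h, 26.1% and 24.5% (24 h), 24.995% and 26.2% (48 h), and 26.1% and 26.5% (72 h). The 95% Wilson intervals, which cover counting error only, ran from 24.0% to 25.5% in 0 h a and from 25.8% to 27.2% in 72 h b. The 24 h libraries overlapped those of every other time, while both 48 h and both 72 h libraries lay above both 0 h libraries. An exact permutation test over the 4 times that reassigned the libraries to the times gave p = 0.210 (an F statistic, with 0.00952 the smallest p possible). The share of counts exceeded the share of rows, 22.8%, in each library, but before 72 h only with the Slc8a1 circle included. Without that circle the share was 21.1% to 22.4% at 0 to 48 h, and only the 72 h libraries (24.3% and 24.7%) exceeded 22.8%.

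Within this share, the most abundant circle and the rest went opposite ways at 72 h. The Slc8a1 circle held, of all circRNA counts, 4.61% and 4.04% (0 h), 4.74% and 4.29% (24 h), 4.10% and 4.80% (48 h), and 2.32% and 2.41% (72 h). Without it, the other short circRNAs held 21.1% and 21.1% (0 h), 22.4% and 21.1% (24 h), 21.8% and 22.4% (48 h), and 24.3% and 24.7% (72 h). Both 72 h libraries then lay above all others, with an exact permutation p of 0.0381. That p is not adjusted for the other settings tried, and this share was not retested with a library left out. The circles under 1000 bases held 12.6% and 12.9% of counts at 72 h, above the 6 earlier libraries at 10.04% to 10.7%. The 4 groups tested together gave an exact permutation p of 0.124, and the 3 earlier times overlapped. Those of 1000 to under 2000 bases other than Slc8a1 stood at 9.89% and 10.6% (0 h), 11.4% and 10.4% (24 h), 11.02% and 11.2% (48 h), and 11.4% and 11.5% (72 h), and the 24 h and 72 h libraries overlapped.

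The number of short circRNAs with a count did not differ past the test either. It was 315 and 334 of 493 at 0 h, 316 and 344 (24 h), 359 and 351 (48 h), and 347 and 350 (72 h) (exact permutation p = 0.152). Thinned to the lowest library total of 13603, the expected numbers were 315 and 314.8, 306.7 and 325.5, 325.6 and 334.8, and 332.8 and 343.2 (exact permutation p = 0.162). Short circRNAs were 21.6% to 22.7% of all circRNAs detected in a library (exact permutation p = 0.219). The median count of a short circRNA was 1 in 0 h a, against 2 for the longer ones, and 2 in 48 h a, against 3. In every other library both medians were 2. The mean by library was 6.83 to 10.7 for the short circRNAs against 6.13 to 9.44 for the longer ones. The short mean includes the Slc8a1 circle, which held 8.89% to 18.6% of the short counts by library.

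**Figure D2:**
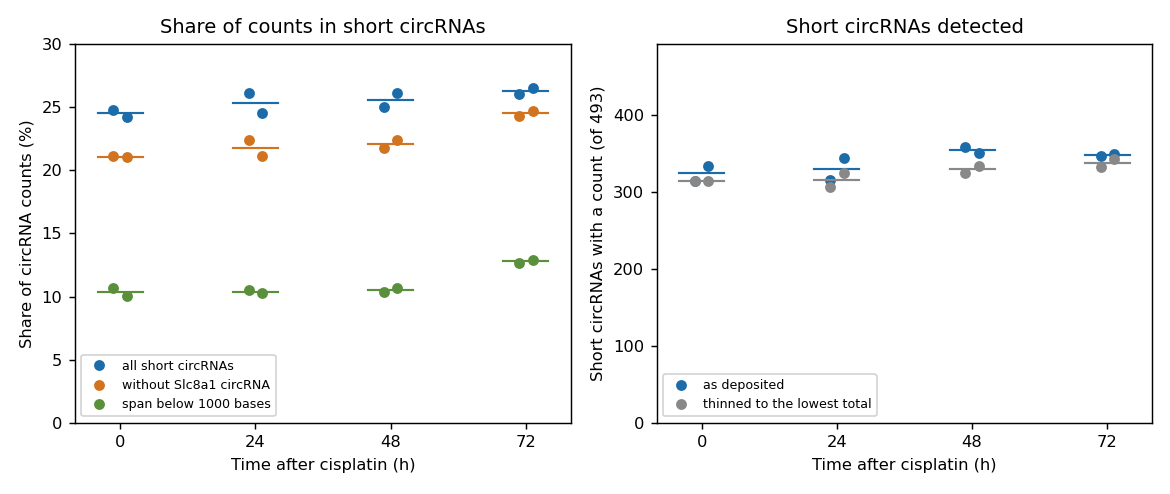
Left, the share of each library's circRNA counts (percent) held by all short circRNAs, by those other than the Slc8a1 circle, and by those under 1000 bases, against time after cisplatin in h; right, the number of the 493 short circRNAs with a count, as deposited and thinned to the lowest total. Points are libraries and bars are means of 2; the full share stays between 24.3% and 26.5%, while both 72 h points stand highest without Slc8a1.

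Few short circRNAs changed by themselves. With edgeR's quasi-likelihood test, 343 of the 493 had counts in at least 4 libraries and were tested among 1574 circRNAs, with Benjamini-Hochberg adjustment over all of them and a threshold of 0.05. At 24 h against 0 h, 5 short circRNAs passed, 2 higher (Tulp4, Kansl1l) and 3 lower (Adgre1, Bnc2, Bbs9), or 1.46%, where 1.78% of all tested circRNAs passed. At 48 h 2 passed, Tulp4 higher and Bnc2 lower, or 0.583% against 1.27% of all. At 72 h 3 passed, Tulp4 higher and Bnc2 and Slc8a1 lower, or 0.875% against 1.33% of all. In the test over all 4 times 6 passed, 1.75% against 2.73%. The median log2 fold change of the short circRNAs tested was -0.06, -0.07 and 0.09 at 24, 48 and 72 h, beside -0.08, -0.04 and 0.00 for all tested. In a simulation of 72 h against 0 h on 1574 circRNAs it found 4% of 2-fold and 33% of 4-fold changes.

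The most abundant member, the circle of Slc8a1 (1830 bases, chromosome 17, 81647809 to 81649638), was lower at 72 h. Slc8a1 encodes the sodium-calcium exchanger NCX1. Its counts were 627 and 735 (0 h), 809 and 745 (24 h), 863 and 819 (48 h), and 378 and 373 (72 h). Normalised, these were 849 and 708, 790 and 727, 699.8 and 801, and 370.2 and 387. The first 3 times overlapped and both 72 h libraries lay below all 6 others, at a log2 fold change of -1.04 ± 0.126 (SE) and an edgeR adjusted p of 1.06e-13. At 24 h and 48 h the log2 fold changes were -0.04 ± 0.123 and -0.05 ± 0.122 (edgeR adjusted p = 0.95 and 0.964). It was the only circRNA counted from this host.

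Tulp4, which encodes a protein of the tubby-like family, gave the short circRNA that rose at every time (1946 bases, chromosome 17, 6137211 to 6139156). It had 33 and 42 counts (0 h), 207 and 116 (24 h), 202 and 177 (48 h), and 120 and 113 (72 h). The normalised counts were 44.7 and 40.4, 202 and 113, 164 and 173, and 118 and 117. Every library after cisplatin lay above both 0 h libraries, and the 24 h libraries stood widest apart. The log2 fold changes were 1.89 ± 0.217, 1.99 ± 0.216 and 1.47 ± 0.223, or 3.71-fold, 3.97-fold and 2.77-fold (edgeR adjusted p = 2.03e-15, 1.98e-17 and 1.24e-08). Its linear RNA was not analysed here.

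The short circle of Bnc2 (1970 bases, chromosome 4, 84291693 to 84293662) was lower at every time. Bnc2 encodes basonuclin 2, a zinc-finger protein. Its counts were 106 and 123 (0 h), 57 and 49 (24 h), 92 and 57 (48 h), and 70 and 53 (72 h), or normalised 143 and 118, 55.6 and 47.8, 74.6 and 55.7, and 68.6 and 55.0. All 6 later libraries lay below both 0 h libraries, with log2 fold changes of -1.33 ± 0.229, -0.99 ± 0.220 and -1.07 ± 0.225 (edgeR adjusted p = 1.55e-06, 0.00129 and 0.000337). The 48 h call was lost without 0 h library a (edgeR adjusted p = 0.0853) or 48 h b (0.149), and the 72 h call without 0 h a (0.0519) or 72 h b (0.122). A longer circle of the same gene, 9700 bases, had 27 and 38 counts (0 h), 12 and 32 (24 h), 52 and 26 (48 h), and 25 and 14 (72 h), and was not called (log2 -0.77, -0.10 and -0.90); whether the 2 circles differ was not tested.

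The other 3 calls at 24 h rested on fewer counts. Bbs9 encodes a subunit of the BBSome, a cargo-carrying complex of cilia. Its 416-base circle (chromosome 9, 22887581 to 22887996) had 38 and 48 counts (0 h), 17 and 25 (24 h), 49 and 30 (48 h), and 21 and 27 (72 h). It was lower at 24 h by a log2 of -1.24 ± 0.343 (edgeR adjusted p = 0.0211), and at 48 h and 72 h it did not pass (edgeR adjusted p = 0.654 and 0.118). A 1120-base circle of Kansl1l (chromosome 1, 66801049 to 66802168) had 6 and 15 counts (0 h), 29 and 38 (24 h), 40 and 23 (48 h), and 21 and 19 (72 h). All 6 later libraries were above both 0 h libraries, with a log2 fold change of 1.47 ± 0.424 at 24 h (edgeR adjusted p = 0.0311) and 1.24 and 0.78 later, which did not pass. Both 24 h calls were lost without either 0 h library: for Bbs9 at edgeR adjusted p = 0.178 and 0.119, for Kansl1l at 0.368 and 0.0719. They were also lost in DESeq2 (adjusted p = 0.0944 and 0.0815). Leaving out 24 h a for Bbs9 (0.353) and 24 h b for Kansl1l (0.162) likewise ended the edgeR call.

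The remaining call at 24 h was a circle of Adgre1, the gene of the macrophage surface protein F4/80 (1203 bases, chromosome 17, 57419322 to 57420524). It had 10 and 9 counts (0 h), 2 and 0 (24 h), 3 and 7 (48 h), and 11 and 7 (72 h). The 24 h and 0 h libraries did not overlap, and the 72 h counts overlapped those at 0 h. Set against library totals, the 24 h to 0 h ratio was 0.0972, with an exact 95% interval from counting error alone of 0.0110 to 0.403; edgeR gave an adjusted p of 0.0247. That call was lost without 0 h a (edgeR adjusted p = 0.269), 0 h b (0.0721) or 24 h b (0.203). DESeq2 gave it no adjusted p at 24 h (unadjusted p = 0.00790) and so did not call it. The linear Adgre1 row was at 0.193 to 1.08 FPKM, under the limit for testing, and macrophage markers (3 of 4 with a row, 2 above 1 FPKM at 0 h) summed to 18.2 and 18.5 FPKM (0 h), 28.5 and 19.3 (24 h), 26.5 and 26.9 (48 h), and 49.98 and 52.1 (72 h). Their part in this call was not tested. A second short Adgre1 circle of 1637 bases had 1 to 5 counts.

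Over the 4 times together, the 6 that passed were Slc8a1, Tulp4, Bnc2, Bbs9, Pvt1 and Birc2, the last of which was named after its values were seen. Pvt1 is a long noncoding gene beside Myc, and its 318-base circle (chromosome 15, 62107148 to 62107465) had 14 and 19 counts (0 h), 5 and 13 (24 h), 19 and 25 (48 h), and 45 and 45 (72 h). The 72 h libraries were the highest, with an edgeR adjusted p of 1.99e-05 over the 4 times, although 72 h against 0 h alone did not pass (log2 1.28, edgeR adjusted p = 0.0528). Birc2 encodes the apoptosis inhibitor cIAP1, and its 1395-base circle (chromosome 9, 7825615 to 7827009) had 6 and 7 counts (0 h), 23 and 24 (24 h), 32 and 19 (48 h), and 8 and 5 (72 h). Both 24 h and both 48 h libraries lay above the other 4, with an edgeR adjusted p of 0.00529 over the 4 times and no contrast with 0 h past the threshold (24 h: log2 1.63, edgeR adjusted p = 0.0788). The linear Birc2 row stood at 6.36 and 6.63 FPKM (0 h) and 12.8 to 16.1 in all 6 later libraries.

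**Figure D3:**
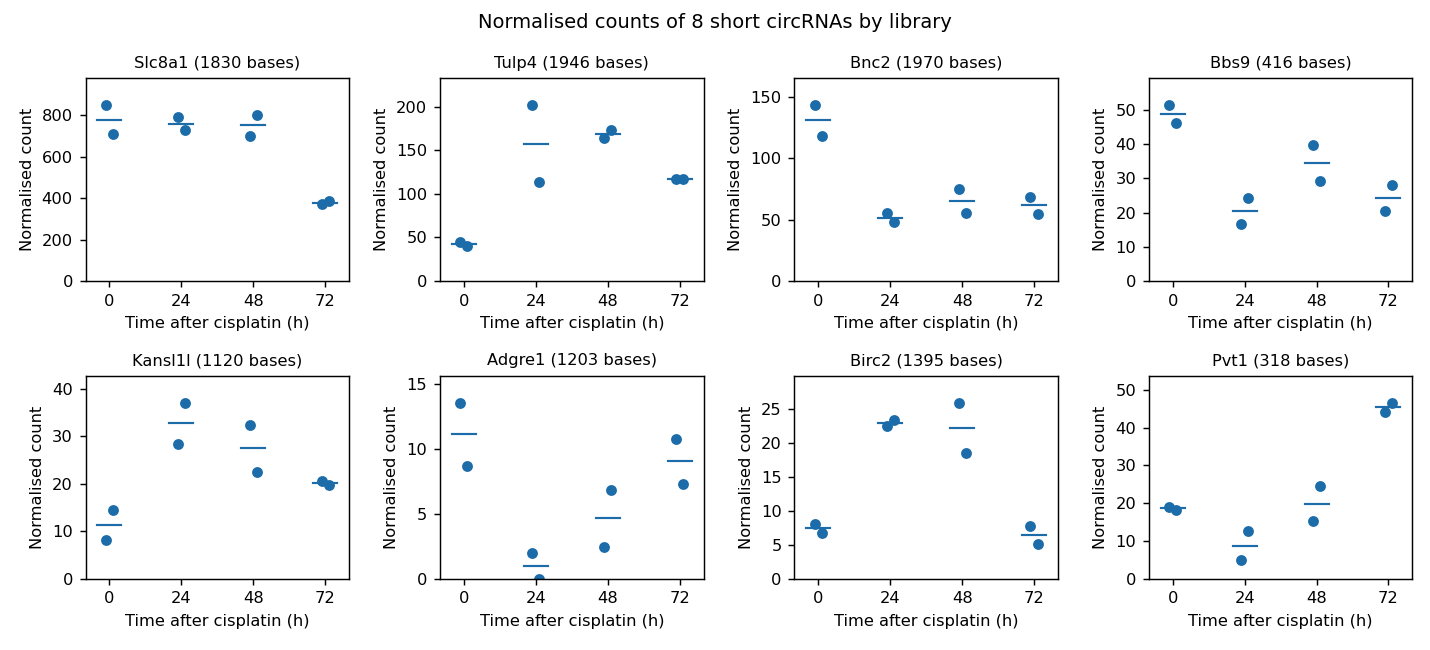
Normalised counts (vertical, from 0) against time after cisplatin in h for 8 short circRNAs; points are libraries and bars are means of 2. The Slc8a1 circle is lowest at 72 h, that of Tulp4 stands above 0 h and that of Bnc2 below 0 h at every later time, and those of Birc2 and Pvt1 are high at 24 to 48 h and at 72 h respectively.

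The other abundant short circRNAs did not pass at any time. The 238-base circle of Med13l, a subunit gene of the Mediator kinase module (chromosome 5, 118593333 to 118593570), had 98, 118, 103, 100, 149, 113, 106 and 112 counts from 0 h a to 72 h b. The 532-base circle of the transcription factor gene Nfix (chromosome 8, 84771784 to 84772315) had 57 to 104 counts, the 863-base circle of the mannosyltransferase gene Alg12 (chromosome 15, 88811297 to 88812159) 59 to 98, and the 1612-base circle in the overlapping genes Rbm4 and Gm21992 (chromosome 19, 4792398 to 4794009) 60 to 108. In normalised counts the libraries of Alg12 and Rbm4 overlapped 0 h at every later time. Those of Med13l were lower at 24 h (100.5 and 97.6, against 133 and 114 at 0 h) and those of Nfix higher at 72 h (102 and 89.2, against 77.2 and 74.2) without overlap, but neither difference passed (edgeR adjusted p = 0.607 and 0.599). The Rps3 circle (chromosome 7, 99482785 to 99482932) had 53 and 70 counts (0 h) and 126 and 88 (72 h), with no overlap and a log2 fold change of 0.63 ± 0.224 that did not pass (edgeR adjusted p = 0.172).

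Among gene groups, a list of 30 genes known as hosts of well-studied circRNAs had 9 short circRNAs, 8 of them tested, with 1, 1 and 2 calls at 24, 48 and 72 h: Tulp4 at each time and Slc8a1 at 72 h. Of all tested circRNAs 1.78%, 1.27% and 1.33% were called at these times, and lists of so few members cannot be read against such shares. Hipk3, a homeodomain-interacting kinase gene whose circle is one of the most studied, gave a 1099-base circle with 45 and 50 counts (0 h), 78 and 69 (24 h), 85 and 79 (48 h), and 49 and 49 (72 h). Normalised, the 24 and 48 h libraries lay above the others, but no contrast passed (log2 0.41, 0.43 and -0.13, edgeR adjusted p = 0.564, 0.603 and 0.902). Circles of Cdyl, a chromodomain protein gene (667 bases, 13 to 31 counts), Zfp609 (874 bases, 8 to 34 counts) and Fbxw7, a substrate receptor of an SCF ubiquitin ligase (579 bases, 2 to 18 counts), did not pass either. The circle of the synaptic gene Rims2 (311 bases) had 3 counts in 0 h a, 1 in 24 h b and 0 elsewhere.

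Other lists gave short circRNAs in uneven numbers. As background, 253 of the 10757 gene rows tested were hosts of a short circRNA tested against its row. The lists count hosts of any short circRNA, 405 in all, so the 253 leave out hosts whose pair was not tested. Of 62 chromatin and transcription regulators, 16 hosted 19 short circRNAs, all tested; edgeR called 0 at each time, with 2, 0 and 1 at an unadjusted p under 0.05, and DESeq2 also called 0. At the shares called among all circRNAs (1.78%, 1.27% and 1.33%), a list of this size may hold no call. Of all 1574 circRNAs tested, 171, 133 and 167 had an unadjusted edgeR p under 0.05. Of 40 genes of ubiquitin and proteolysis 2 hosted 3 short circRNAs (0 called by edgeR or DESeq2, with 0, 1 and 0 at an unadjusted p under 0.05). Of 32 factors of circRNA biogenesis and turnover only Xrn2, a nuclear exonuclease gene, hosted 1 (edgeR and DESeq2 called 0, as did an unadjusted p under 0.05). In linear RNA, 25 of these 32 were tested and limma with Benjamini-Hochberg adjustment called 10, 10 and 12 higher and 9, 8 and 4 lower, where 65.8%, 70.5% and 70% of all rows were called. The splicing factor gene Srsf6 rose by a log2 of 0.87, 0.78 and 0.33. None of 52 genes of proximal tubule transport and metabolism hosted a short circRNA, and 1 hosted 6 longer ones. At the share of tested hosts given above, which is the narrower count, a list of this size may hold none. Of the 52, 45 were expressed well enough to be tested in linear RNA, and limma called 42, 45 and 45 lower and 2, 0 and 0 higher.

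Of the 405 hosts, 287 had short circRNAs only and 118 also a longer one, and in 51 of the 118 the short ones had more counts. Short circRNAs held 41.0% and 38.4% of the counts in those 118 hosts at 0 h, 36.8% and 36.7% (24 h), 38.2% and 37.2% (48 h), and 40.7% and 43.2% (72 h). Kansl1l gave the 1120-base circle and 5 longer ones of 6556 to 45557 bases, each sharing an end with others of the gene. The 5 longer ones had 0 to 39 counts by library and none was called; the difference from the short circle was not tested. Ezh2, the histone methyltransferase gene of the Polycomb complex, gave a pair of short circles, 1132 and 1105 bases long, with 1 end in common. The longer of them had 20 to 61 counts and the shorter 3 to 18, and neither passed at any time. In Glis3, a zinc-finger gene, the 1114-base circle had 52 to 102 counts and the 484-base circle 6 to 20, and in Tns3, a tensin gene, the 1372-base circle 51 to 73 and the 1441-base circle 24 to 52. None of these 4 passed.

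By span within the short circRNAs, there were 128 under 500 bases, 134 of 500 to under 1000 and 231 of 1000 to under 2000, with 7023, 7882 and 19631 counts and 83, 98 and 162 tested. At 24 h the calls numbered 1, 0 and 4, at 48 h 0, 0 and 2, and at 72 h 0, 0 and 3, where 1.78%, 1.27% and 1.33% of all tested circRNAs were called. Of the 181 tested members under 1000 bases, edgeR gave an unadjusted p under 0.05 in 20, 12 and 22 at the 3 times. Among all 1574 circRNAs tested it did so in 171, 133 and 167. DESeq2 called 0 of the 181 at each time. The median log2 fold change at 72 h was 0.22, 0.24 and -0.02 in the 3 span classes, with 50 of 83, 54 of 98 and 78 of 162 above 0. A difference between the classes was not tested.

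Each short circRNA was then set against the row of its host gene, to ask whether the circle and the row changed alike. A row holds FPKM over the gene in rRNA-depleted RNA, so reads from inside the circle may be counted in it. Rows are called linear in this text, but reads of circle and linear RNA were not separated in them. Of the 493, 392 had a host row, 308 of these rows kept to their own gene, and 265 pairs were tested among 1224. Of the 253 host rows of the pairs, limma with Benjamini-Hochberg adjustment called 61.3%, 57.3% and 60.5% at 24, 48 and 72 h, where 65.8%, 70.5% and 70% of all gene rows were called. These were 52 higher and 103 lower at 24 h, 58 and 87 (48 h), and 89 and 64 (72 h). The change of log2(normalised count + 1) minus that of log2(FPKM + 1) had a median of 0.10, 0.16 and 0.05 over the short pairs and 0.18, 0.19 and 0.04 over all pairs. By limma, 2, 1 and 2 short pairs passed at 24, 48 and 72 h, where 0.245%, 0.0817% and 0.245% of all pairs passed, and in each the circle was the higher against its host. At an unadjusted limma p under 0.05 there were 40, 30 and 37 of the 265 short pairs, beside 176, 168 and 148 of all 1224. The simulation for this test held the host at a constant value and used unscaled counts of 1574 circRNAs. It recovered 2% of 2-fold and 28% of 4-fold changes, rates that do not cover the noise of real host rows.

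Slc8a1 passed at all 3 times. Its linear row (chromosome 17, 81373032 to 81671745) was at 64.8 and 66.3 FPKM (0 h), 10.9 and 10.5 (24 h), 7.34 and 7.39 (48 h), and 11.5 and 16.1 (72 h). It thus fell by 2.51, 2.99 and 2.19 on the log2 scale, while the circle's normalised counts at 24 and 48 h overlapped those at 0 h. The circle stood higher against the row by a log2 of 2.47 ± 0.156 at 24 h, 2.94 ± 0.156 at 48 h and 1.16 ± 0.156 at 72 h (limma adjusted p = 4.54e-06, 6.66e-07 and 0.0130). The 72 h call was lost without 0 h b (limma adjusted p = 0.0785), 48 h a (0.0665), 48 h b (0.0569) or 72 h a (0.159).

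The other 2 pairs rested on low counts. A 295-base circle of Gab1, a docking protein gene of receptor tyrosine kinases (chromosome 8, 80800101 to 80800395), had 4 and 9 counts (0 h), 18 and 15 (24 h), 17 and 10 (48 h), and 16 and 15 (72 h). Its row was at 8.71 and 8.77 FPKM (0 h) and 2.82 to 5.06 later, and the difference at 24 h was 2.41 ± 0.400 (limma adjusted p = 0.0278). That call was lost in 7 of the 8 fits that left out 1 library, at limma adjusted p from 0.0516 to 0.304. A 488-base circle of Kmt2a, a histone H3 methyltransferase gene (chromosome 9, 44828784 to 44829271), had 11 to 19 counts with overlapping groups, against a row at 303 and 309 FPKM (0 h), 112 and 94.1 (24 h), 41.1 and 42.4 (48 h), and 24.1 and 24.2 (72 h). That row also spans Tmem25 and Ttc36, so its fall cannot be assigned to Kmt2a. The difference at 72 h was 3.68 ± 0.622 (limma adjusted p = 0.0321), lost in 6 of the 8 fits that left out 1 library (0.0569 to 0.382).

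For Bnc2 the circle and the row moved the same way: the row was at 13.4 and 13.1 FPKM (0 h) and 6.29 to 9.87 later, a log2 change of -0.58, -0.70 and -0.86 that limma called each time. The pair was not called.

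**Figure D4:**
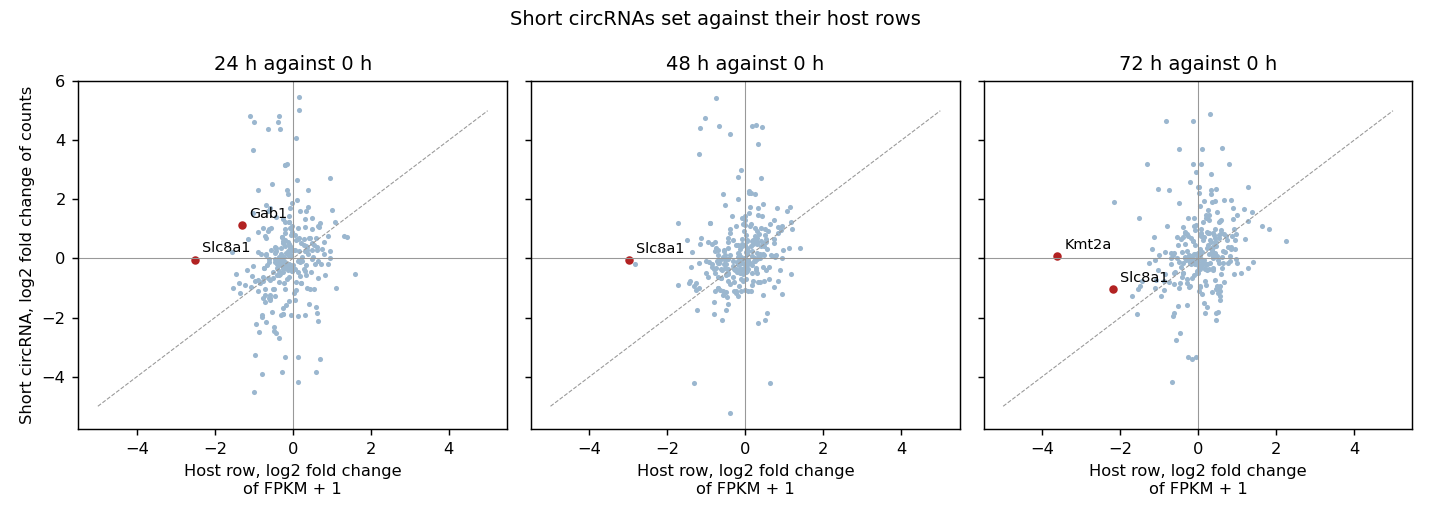
Log2 fold change of the circRNA count fitted by edgeR (vertical) against that of the host row's FPKM + 1 (horizontal) for 265 short circRNAs at 24, 48 and 72 h against 0 h, 1 point each; red points passed the limma test of the difference and the dashed line marks equal change. Slc8a1 lies near 0 on the vertical axis at 24 and 48 h while its row is lower by 2.51 and 2.99, and the widest vertical values belong to circles with few counts.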

How the data were processed

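RNA from 8 libraries was measured, with rRNA removed and libraries made with a kit the labels name for small RNA. The circRNA table held counts per back-splice position pair, deposited without normalisation; the gene table held FPKM, per the file headers. Per the submitters' processing notes, Bowtie 0.12.2, TopHat2, Cufflinks and build mm10 were used in steps that are not specified. The circRNA caller and any use of strand are not given in the sources used here. Column names hold a letter, a or b, where the labels have replicate numbers, so each was assigned to its time only, and another 8 per-sample columns were not used.

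Members and gene lists were chosen with earlier results of these data known. circRNAs above 0 in at least 4 of 8 libraries (1574) were fitted in edgeR 4.0.16 under R 4.3.3 (TMM, robust quasi-likelihood, 1 fit of the 4 groups), with 2-sided tests and Benjamini-Hochberg adjustment. Hosts are the only RefSeq protein-coding gene holding both ends; their rows were matched by symbol or RefSeq synonym. Host differences, log2(normalised count + 1) minus log2(FPKM + 1), and gene rows with at least 1 FPKM in 2 libraries were fitted in limma 3.58.1 (trend, robust). Per-library values were compared by exact permutation; no p is given for 2 libraries against 2. Duplicate libraries differed by more than sampling noise (chi-square over degrees of freedom 1.38 to 2.11 over short circRNAs), and each was counted as its own library. That check cannot tell separate animals from separate preparations of the same RNA. Both fits were tested on simulated data with the same spread set for all circRNAs, where 2.6% (edgeR) and 3.2% (limma) of calls were false. The limma simulation held the host constant, so its rate does not cover the noise of real host rows.

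Named circRNAs are the 8 most abundant, those called without overlap between groups and with a mean normalised count of at least 3 (up to 8 each way), up to 4 each way against the host row, the 2 shortest and the 2 nearest each side of 2000 bases, 4 hosts with the most short circRNAs, and members from well-known hosts. A few of these are not reported here. Alternatives were DESeq2 1.42.0, other scalings, filters, pseudocounts, host rows that keep to their gene, fits of 2 groups, the library letter as a block, and leaving out each library.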

Additional observations from a re-analysis of the deposited data

How the results depend on the processing

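The calls of Tulp4 at each time, Slc8a1 at 72 h and Bnc2 at 24 h, and those of Slc8a1 against its host row at 24 and 48 h, held in all 14 or 15 alternatives run for each, and none of the 8 circRNAs called in a contrast (these, Adgre1, Bbs9, Kansl1l, Gab1 and Kmt2a) changed direction in the alternatives run for it; the other named circRNAs were not compared across alternatives. Without the Slc8a1 circle the share test moved to an exact permutation p of 0.0381; leaving out 1 library gave 0.143 to 0.524 for the share of counts, 0.181 to 0.410 for the share of detected circRNAs and 0.124 to 0.295 for the number detected. Over circles under 1000 bases the calls were 1, 0, 0 and 2 at 24 h, 48 h, 72 h and over all times. At 24 h DESeq2 called 2, and fits without 1 library 2 to 5. At 48 h those fits called 1 to 2, at 72 h 2 to 5, and over all times 5 to 9. At 72 h there were 6 calls with library totals alone, 5 with a mean count of at least 5, and 6 with only the 2 groups fitted. Against host rows, fits without 1 library called 1 to 2, 1 to 2 and 0 to 2 pairs at the 3 times. A pseudocount of 2 gave 2 at 48 h and 4 at 72 h, one of 0.5 gave 1 at 72 h, a mean count of at least 5 gave 4 at both times, and rows that keep to their gene gave 1 at 72 h. The cause of these shifts was not tested.

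With the library letter as a replicate block, 72 h had 5 calls and the host test 1 at 24 h and 1 at 72 h, losing Gab1 (limma adjusted p = 0.0912) and Kmt2a (0.0640). The letters share only a name: differences between a and b correlated between groups at -0.02 to 0.04. Kmt2a was also lost at a pseudocount of 0.5 (limma adjusted p = 0.149), and Kansl1l with only the 2 groups fitted (edgeR adjusted p = 0.0508).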
